A study of Mus musculus with 20 samples.

Results

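The genes described here build the receptors for GABA and glycine, the inhibitory transmitters of the brain, together with the postsynaptic proteins, chloride transporters and GABA-clearing proteins that work with them. They are 27 named genes out of 55487 gene entries in the count tables, taken from a list by symbol. The list holds 11 GABA-A receptor subunits, 2 GABA-B receptor subunits, 3 auxiliary subunits of the GABA-B receptor, 3 glycine receptor subunits, 4 proteins of the inhibitory postsynapse, 2 chloride cotransporters and 2 proteins of GABA uptake and breakdown. All 27 were found in the tables. Other subunits of these receptors are not described here.

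GABA-A and glycine receptors are pentameric chloride channels that open within milliseconds, and the α subunit of a GABA-A receptor largely sets where it sits and which drugs it binds. GABA-B receptors are G-protein-coupled receptors that act slowly through potassium and calcium channels. In the hippocampus, α5-containing GABA-A receptors lie mostly outside synapses on pyramidal cells, and δ-containing receptors carry a tonic current in dentate granule cells, thalamic neurons and some cortical neurons.

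RNA was sequenced from hippocampus and cortex of bulbectomised mice of the NMRI stock, in which the olfactory bulbs had been removed by surgery. The mice had received recombinant YB-1 (6.4 µg), a cold shock protein that binds nucleic acids, or human recombinant HSP70 (4 µg), a heat shock chaperone, through the nose once a day for 21 days from day 14 after surgery. There were 5 libraries in each of 4 groups: hippocampus with YB-1, hippocampus with HSP70, cortex with YB-1 and cortex with HSP70. All groups share the bulbectomy, and mice that were not operated or received vehicle were not analysed here. The labels do not name the animal behind a library, so p-values measure the spread between these libraries. In such bulk tissue, fewer cells of a type and less RNA per cell cannot be told apart.

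Libraries held 6414215 to 15148078 reads assigned to genes. In the cortex the totals did not overlap between treatments (6414215 to 10763465 reads with YB-1, 12283392 to 15148078 with HSP70), so a separate preparation or sequencing cannot be told apart from the treatment there. The short neuronal RNA Bc1 took 3.92% to 20.8% of reads, and over 20% in hippocampal replicates 4 with YB-1 and 5 with HSP70. Of the regional markers, 7 of 9 pyramidal cell genes of the hippocampus and 5 of 9 dentate granule cell genes were higher in hippocampus (1 dentate gene was lower), and 8 of 10 upper-layer genes of the cortex were lower there and 1 higher (adjusted p under 0.05, edgeR's quasi-likelihood test). Deep-layer markers differed between the tissues without a shared direction, with 5 of 11 higher and 5 lower in hippocampus. Summed thalamic markers, some of which other neurons also express, were higher in hippocampal libraries, at 193 to 445 CPM (YB-1) and 214 to 541 CPM (HSP70), against 88.5 to 119 and 106 to 132 CPM in cortex. CPM are read counts scaled to library size, with TMM factors.

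The sequences before the starts of Gabra5 and Gabra3 are shown because these α subunits passed the test between the tissues in both treatments, in opposite directions. The windows run from 250 bases before to 50 bases after the RefSeq start on the minus strand of GRCm38.p6, at chr7:57510010-57510309 for Gabra5 and chrX:72656870-72657169 for the first of 2 Gabra3 starts. Capitals mark CCAAT in the Gabra5 window, and TATAAA and CCAAT in the Gabra3 window, on either strand.
Gabra5: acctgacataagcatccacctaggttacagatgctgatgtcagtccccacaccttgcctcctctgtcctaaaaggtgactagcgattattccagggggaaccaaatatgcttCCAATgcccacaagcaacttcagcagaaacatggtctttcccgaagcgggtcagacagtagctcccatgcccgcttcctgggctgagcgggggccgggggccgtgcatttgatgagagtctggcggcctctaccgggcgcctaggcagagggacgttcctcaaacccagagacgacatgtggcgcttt
Gabra3: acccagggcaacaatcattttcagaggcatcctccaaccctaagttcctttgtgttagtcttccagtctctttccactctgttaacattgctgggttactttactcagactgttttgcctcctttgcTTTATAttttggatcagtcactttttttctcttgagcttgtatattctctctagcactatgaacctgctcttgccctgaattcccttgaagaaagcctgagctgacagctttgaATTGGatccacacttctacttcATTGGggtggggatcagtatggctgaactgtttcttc
The Gabra5 window had a GC content of 56.7% and 13 CpG dinucleotides, the Gabra3 window 43% and 0, against a median GC content of 52.7% over all 32851 RefSeq promoter windows of that length. CCAAT occurred on either strand in 37.4% of all windows and TATAAA in 13.6%. Of the 28 windows of members (23 of 27 members had an entry), 10 held CCAAT, 4 held TATAAA and 19 held GGGCGG, which 35.7% of all windows held. TGACGTCA was in 1 member window (Kctd8), against 1.79% of all windows, and CACGTG in 1 (Slc12a5), against 7.15%. A match is a description of the letters and not a bound site.

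Differences between the tissues were found in 9 of the 26 members tested, in both directions. Gabra5, Gabre, Kctd12 and Slc6a11 were higher in hippocampus than in cortex, and Gabrd, Gabra3, Kctd16, Glrb and Slc12a5 were lower. The test was edgeR's quasi-likelihood test over both treatments, with an adjusted p under 0.05, and it called 15.9% of all 14616 genes (8.55% higher, 7.32% lower). The members' median log2 fold change was -0.01 and their median absolute change 0.30, against 0.00064 and 0.19 over all genes tested. Gabrq did not pass the filter on low counts.

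Gabra5 (ENSMUSG00000055078, chromosome 7) encodes the α5 subunit of GABA-A receptors. In replicate order, hippocampal libraries had 59.3, 43.9, 49.3, 53.6 and 46.9 CPM with YB-1 and 46.7, 58.9, 34.6, 41.1 and 41.6 CPM with HSP70. Cortical libraries had 9.64, 10.6, 17.6, 9.36 and 13.1 CPM with YB-1 and 16.3, 11.996, 13.4, 13.2 and 12.9 CPM with HSP70. The lowest hippocampal library stood above the highest cortical one, so the tissues did not overlap. The share of all genes that separated the tissues in this way is not given here. Over both treatments the log2 fold change was 1.89 ± 0.12 (SE; adjusted p = 3.1e-11 in edgeR), higher in hippocampus in 10 of 10 same-numbered pairs. It was 2.06 ± 0.18 with YB-1 and 1.71 ± 0.17 with HSP70. Per kb of exon length, Gabra5 ranked 9th of the members in hippocampus at 16.004 ± 2.66 CPM per kb and 13th in cortex at 4.31 ± 0.890 (SD, n = 10 each). In the annotation, 4.98% of its exon bases overlap a gene on the opposite strand, and the strand setting of the counting is not given in the sources used here.

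Gabra3 (ENSMUSG00000031343, chromosome X), which encodes the α3 subunit, went the other way. Hippocampal libraries had 39.5, 15.96, 24.5, 21.3 and 16.6 CPM with YB-1 and 47.0, 34.6, 23.5, 30.4 and 23.6 CPM with HSP70. Cortical libraries had 59.5, 36.2, 69.7, 33.4 and 49.999 CPM with YB-1 and 77.8, 59.4, 51.5, 54.9 and 43.7 CPM with HSP70. The tissue ranges overlapped in both treatments. Hippocampal libraries reached 39.5 CPM with YB-1 and 47.0 CPM with HSP70, both in replicate 1, and cortical ones went down to 33.4 and 43.7 CPM. All 10 same-numbered pairs were nevertheless lower in hippocampus, with a log2 fold change of -0.97 ± 0.18 over both treatments (adjusted p = 0.00028 in edgeR). The value was -1.08 ± 0.25 with YB-1 and -0.85 ± 0.25 with HSP70, and the HSP70 call ended without any of hippocampal replicates 3, 4 and 5 and cortical replicates 1 and 2 (adjusted p = 0.0565 to 0.0931).

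Among the 4 α subunits described, the share that each took of their summed level per kb differed by tissue. Gabra5 made up 52.2% ± 6.07 in hippocampus with YB-1 and 48.2% ± 7.69 with HSP70, against 16.1% ± 2.40 in cortex with YB-1 and 15.4% ± 2.46 with HSP70 (SD, n = 5 each). Gabra3 made up 17.7% ± 3.91 and 25.4% ± 2.51 in hippocampus, against 49.5% ± 4.44 and 48.1% ± 1.95 in cortex, in the same order of treatments. Gabra2 and Gabra4 took up to 21.4% and 15.1% on average in any group. These shares leave out α subunits that are not described here.

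Gabrd (ENSMUSG00000029054, chromosome 4) encodes the δ subunit of extrasynaptic receptors. Its hippocampal libraries had 33.1, 61.2, 47.9, 46.0 and 47.7 CPM with YB-1 and 36.1, 31.7, 45.3, 58.5 and 60.3 CPM with HSP70. Cortical libraries had 98.9, 125, 76.6, 139 and 90.2 CPM with YB-1 and 89.5, 117, 113, 117 and 146 CPM with HSP70. Every cortical library stood above every hippocampal one. The log2 fold change was -1.25 ± 0.14 over both treatments (adjusted p = 2.5e-07 in edgeR), -1.16 ± 0.19 with YB-1 and -1.33 ± 0.19 with HSP70. Gabrd ranked 8th of the members per kb in hippocampus, at 16.3 ± 3.77 CPM per kb, and 4th in cortex, at 38.7 ± 7.76 (SD, n = 10 each). Thalamic markers, of a tissue known for δ-containing receptors, were higher in the hippocampal libraries (6 of 10 markers tested passed, with the summed levels given above), while Gabrd was lower there. Their part in the Gabrd result was not tested.

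Gabre, which encodes the ε subunit, was rare in both tissues. It had 0.963, 0.967, 1.60, 0.677 and 1.21 CPM in hippocampus with YB-1 and 1.82, 1.89, 1.63, 0.877 and 0.902 CPM with HSP70. In cortex it had 0.536, 0, 0.707, 0 and 0 CPM with YB-1 and 0.139, 0.248, 0.0669, 0.152 and 0.581 CPM with HSP70. These values rest on 5 to 19 reads a hippocampal library and 0 to 8 reads a cortical one, and the ranges overlapped. The log2 fold change was 2.23 ± 0.48 over both treatments (adjusted p = 0.0014 in edgeR), higher in hippocampus in 10 of 10 pairs. It passed in the HSP70 groups (2.53 ± 0.65) and not in the YB-1 groups (1.92 ± 0.69, adjusted p = 0.11), but the difference between treatments, the interaction, did not pass (adjusted p = 0.9999). With libraries thinned to equal depth Gabre no longer passed the filter on low counts.

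**Figure D1:**
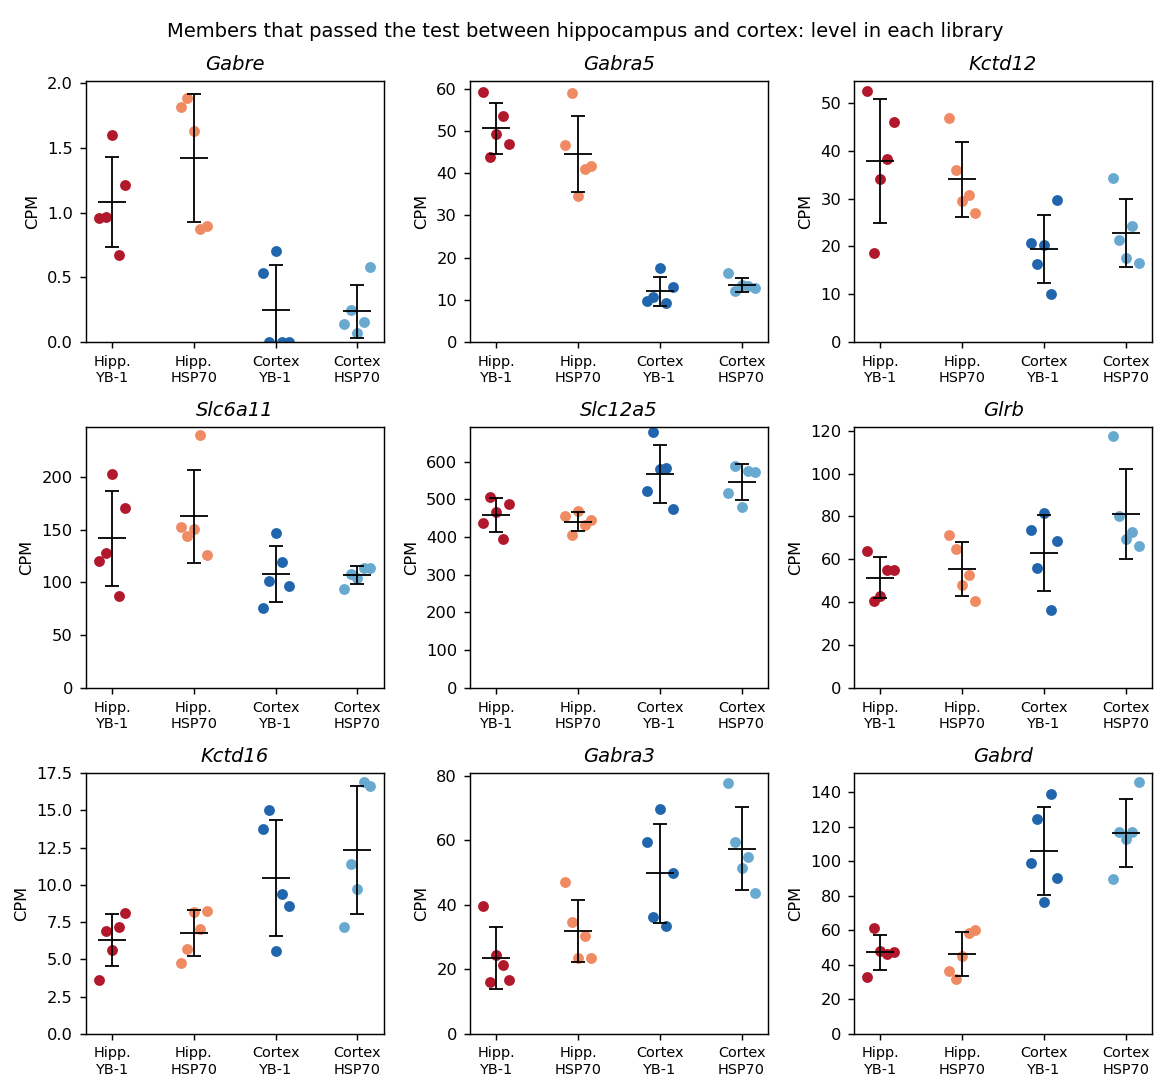
Level of the 9 members that passed the test between tissues, in CPM (vertical axis, from 0), in hippocampus with YB-1 and HSP70 and cortex with YB-1 and HSP70. Points are libraries, the long bar is the mean and the whiskers 1 SD (n = 5); the tissues do not overlap for Gabra5 and Gabrd, and the treatments overlap in every panel.

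The remaining GABA-A subunits showed no difference that passed between tissues. Gabra2, Gabra4, Gabrb1, Gabrb2, Gabrg1 and Gabrg3, which encode α2, α4, β1, β2, γ1 and γ3, had log2 fold changes between -0.29 ± 0.27 (Gabrb2) and 0.17 ± 0.12 (Gabrb1). For Gabra2, the sign over both treatments (-0.06 ± 0.24) depended on the processing, and within the treatments it was at 0.36 ± 0.34 with YB-1 and -0.47 ± 0.34 with HSP70. Gabrq, the θ subunit, was listed with 0 to 7 reads a library. Exons of Gabra4 and Gabrb1 overlap on opposite strands over 0.76% and 0.33% of their length.

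Of the GABA-B receptor genes, Gabbr1 and Gabbr2 encode the 2 subunits that make up the receptor. Gabbr1 had the highest level per kb of all members, at 139 ± 15.6 CPM per kb in hippocampus and 132 ± 18.5 in cortex (SD, n = 10 each), with a log2 fold change of 0.08 ± 0.09. Gabbr2 was at 21.2 ± 4.19 CPM per kb in hippocampus and 26.8 ± 6.11 in cortex. Its log2 fold change of -0.34 ± 0.13 did not pass (adjusted p = 0.084 in edgeR), and did when the replicate number was a block (-0.33, adjusted p = 0.036).

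The auxiliary subunits, which bind the GABA-B receptor and shape its response, split by tissue. Kctd12 was higher in hippocampus, at 37.8 ± 12.9 CPM with YB-1 and 34.0 ± 7.84 with HSP70, against 19.4 ± 7.13 and 22.8 ± 7.14 CPM in cortex (SD, n = 5 each). Its log2 fold change was 0.76 ± 0.19 (adjusted p = 0.0047 in edgeR), with 10 of 10 pairs higher. Kctd16 was lower in hippocampus, at 6.28 ± 1.73 CPM with YB-1 and 6.77 ± 1.53 with HSP70, against 10.46 ± 3.90 and 12.4 ± 4.29 CPM in cortex (-0.80 ± 0.20, adjusted p = 0.0057). Kctd8 was at -0.32 ± 0.31 and did not pass. In the annotation 64.2% of the exon bases of Kctd12 overlap other genes, 1 on the same and 1 on the opposite strand. For Kctd16, 10.3% overlap a gene on the opposite strand. The effect of these overlaps on the counts was not tested. Within the YB-1 groups Kctd12 passed (0.95 ± 0.26), but not without any of hippocampal replicates 1 and 5 and cortical replicates 2, 3 and 4 (adjusted p = 0.0529 to 0.0832).

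Among the glycine receptor genes, Glrb, whose β subunit anchors the receptor to gephyrin, stood far above the α subunits described here, Glra2 and Glra3. It was at 11.5 ± 2.31 CPM per kb in hippocampus and 15.5 ± 4.44 in cortex (SD, n = 10 each), while Glra2 and Glra3 stood at 0.08 to 0.70 CPM per kb on average. Glrb was lower in hippocampus, with a log2 fold change of -0.42 ± 0.14 (adjusted p = 0.043 in edgeR), a call that ended without any of 11 of the 20 libraries and without both libraries over 20% Bc1 (adjusted p = 0.080). Those 11 were hippocampal replicates 2, 3 and 5 with YB-1 and 3, 4 and 5 with HSP70, and cortical replicates 1, 3 and 5 with YB-1 and 1 and 2 with HSP70 (adjusted p = 0.0550 to 0.0850). Glra3 had a log2 fold change of -1.08 ± 0.47, on 0 to 66 reads a library, and did not pass (adjusted p = 0.14).

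The scaffold and adhesion genes of the inhibitory synapse differed little between tissues, and none of the 4 passed. Gphn, which encodes the receptor anchor gephyrin, was at 0.06 ± 0.15. Nlgn2, the adhesion protein neuroligin-2, was at -0.18 ± 0.10, Lhfpl4, which links GABA-A receptors to neuroligin-2, at 0.03 ± 0.12, and Iqsec3, an exchange factor that binds gephyrin, at 0.07 ± 0.11 (log2 fold change ± SE, adjusted p of at least 0.24 in edgeR). The signs of Gphn and Lhfpl4 depended on the processing.

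The chloride cotransporters set the gradient that makes GABA inhibitory: the product of Slc12a5 (KCC2) exports chloride from neurons and that of Slc12a2 (NKCC1) imports it. Slc12a5 had 437, 507, 467, 394 and 488 CPM in hippocampus with YB-1 and 455, 404, 468, 433 and 445 CPM with HSP70. In cortex it had 521, 678, 581, 584 and 474 CPM with YB-1 and 517, 589.5, 479, 575 and 574 CPM with HSP70. It was lower in hippocampus, with a log2 fold change of -0.31 ± 0.08 (adjusted p = 0.0069 in edgeR, lower in 9 of 10 pairs), with ranges that overlapped. Slc12a2 had 16.4, 11.7, 13.6, 17.3 and 14.7 CPM in hippocampus with YB-1 and 20.3, 14.98, 11.3, 16.9 and 9.32 CPM with HSP70. Cortical libraries had 10.002, 7.87, 13.3, 5.32 and 11.04 CPM with YB-1 and 19.1, 13.4, 10.3, 11.1 and 8.57 CPM with HSP70. Ranges overlapped, but all 10 same-numbered pairs were higher in hippocampus. The log2 fold change of 0.42 ± 0.17 did not pass (adjusted p = 0.11), and did when the replicate number was a block (0.44, adjusted p = 0.028). Markers of choroid plexus, which is known to hold much NKCC1, summed to 139 to 1090 CPM in hippocampus with YB-1 and 38.5 to 1736 with HSP70, against 10.7 to 48.4 and 11.8 to 164 CPM in cortex. Their part in the Slc12a2 values was not tested.

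The ratio of Slc12a5 to Slc12a2 counts does not depend on the scaling of a library. It was 22.7 to 43.2 in hippocampus with YB-1 and 22.4 to 47.7 with HSP70, against 43.0 to 110 in cortex with YB-1 and 27.01 to 66.98 with HSP70. On the log2 scale the group means were 4.97 ± 0.36, 4.97 ± 0.47, 5.96 ± 0.61 and 5.50 ± 0.48 in that order (SD, n = 5 each). Hippocampus was lower than cortex in 5 of 5 pairs of each treatment. With YB-1 the difference was -0.99 (exact two-sided permutation p = 0.016, n = 5 each, adjusted over 4 comparisons p = 0.063), and with HSP70 it was -0.53 (exact permutation p = 0.095, adjusted p = 0.19). Neither passed after adjustment, and the smallest p this design can give is 0.0079. Between YB-1 and HSP70 the difference was -0.0049 in hippocampus (exact permutation p = 0.98) and 0.45 in cortex (exact permutation p = 0.24).

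Of the proteins that clear GABA, Slc6a11 encodes GAT3, a GABA transporter of astrocytes, and Abat encodes GABA transaminase. Slc6a11 was higher in hippocampus, at 142 ± 45.2 CPM with YB-1 and 163 ± 44.0 with HSP70, against 108 ± 26.5 and 107 ± 8.45 CPM in cortex (SD, n = 5 each). The log2 fold change was 0.50 ± 0.14 (adjusted p = 0.014 in edgeR, 9 of 10 pairs). Of 12 astrocyte markers, 1 (Ntsr2) was higher and 0 lower in hippocampus, and their summed levels overlapped between tissues. Thalamic markers were higher in the hippocampal libraries, with the summed levels given above. The part of astrocytes or of thalamic tissue in the Slc6a11 values was not tested. Abat was at 0.04 ± 0.12.

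Within each treatment alone, 4 of 26 members passed between the tissues. With YB-1 these were Gabra5, Kctd12, Gabrd and Gabra3 (6.51% of all genes), and with HSP70 Gabre, Gabra5, Gabrd and Gabra3 (8.61%). Same-numbered libraries of the tissues deviated together from their group means, and with the number as a block the count was 5 with YB-1, adding Slc12a2 (8.37% of all genes), and 8 with HSP70, adding Glrb, Kctd12, Kctd16 and Slc6a11 (12.2% of all genes). Over both treatments it was 11, adding Gabbr2 and Slc12a2 (19.8% of all genes). Other cell types also differed between the tissues: oligodendrocyte markers summed to 3804 to 5138 CPM in hippocampus with YB-1 and 3849 to 7102 with HSP70, against 1881 to 2553 and 1422 to 2351 CPM in cortex, and 10 of 10 were higher. Pan-neuronal markers were lower in 2 of 10 cases and higher in 0. The part of such differences in cell makeup in the results on members was not tested.

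**Figure D2:**
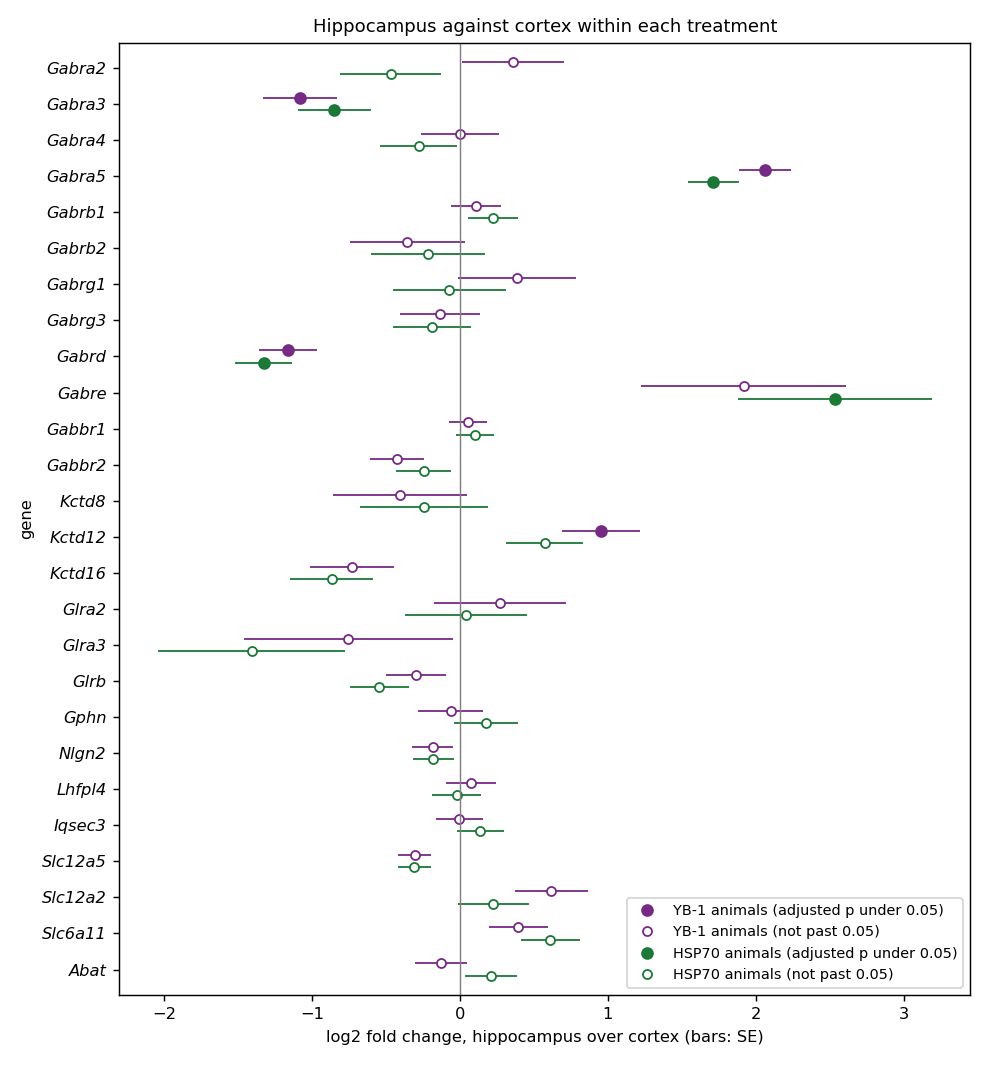
Log2 fold change of the 26 tested members, hippocampus over cortex (horizontal axis; 0 means equal levels), in YB-1 and HSP70 animals, with bars of 1 SE. Filled points passed an adjusted p of 0.05: Gabra5, Gabrd and Gabra3 in both treatments, Kctd12 with YB-1 and Gabre with HSP70.

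Ordered by level per kb, Gabbr1, Slc12a5 and Nlgn2 led in both tissues, and their ranges over 10 libraries did not overlap their neighbours in that order down to Nlgn2. Slc12a5 stood at 60.4 ± 4.70 CPM per kb in hippocampus and 74.8 ± 8.19 in cortex, and Nlgn2 at 35.5 ± 5.08 and 40.3 ± 5.59. Slc6a11, Gabbr2, Abat and Iqsec3, at 16.5 to 30.1 CPM per kb in either tissue, followed Nlgn2 in hippocampus and Gabrd in cortex. Glra2, Glra3, Gabrg1, Gabrg3, Kctd8, Gabre and Gabrq stood below 1 CPM per kb. These levels divide by the exon length of all transcripts in the annotation, which can differ from the length expressed.

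**Figure D3:**
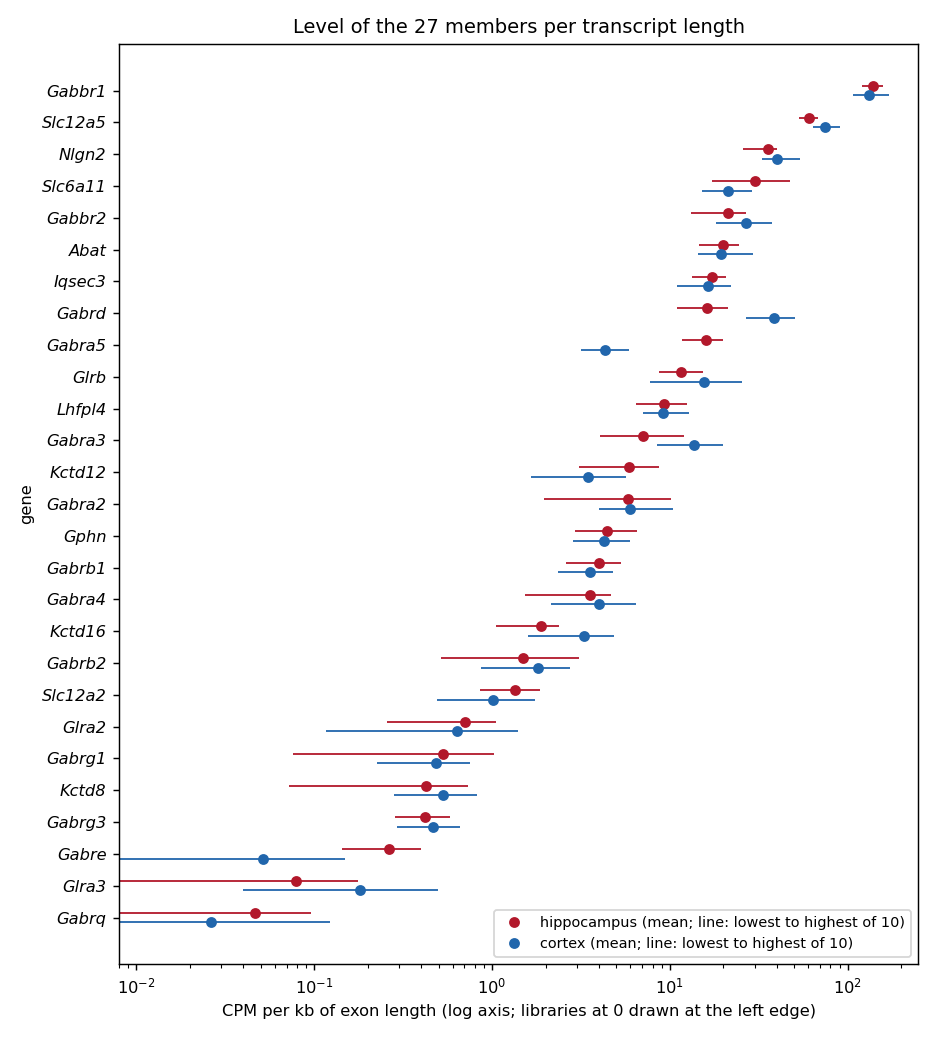
Mean level of each of the 27 members in hippocampus and cortex, in CPM per kb of exon length (log axis), with lines from the lowest to the highest of 10 libraries. Gabbr1 leads with 139 CPM per kb in hippocampus and 132 in cortex, and Gabra5 and Gabrd are the members whose lines do not overlap between tissues.

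Between YB-1 and HSP70 no member passed the test in either tissue. In the hippocampus edgeR's quasi-likelihood test called 0 of 25 members and 0% of 13723 genes. At an unadjusted p under 0.05 there were 0 members with edgeR (2.4% of all genes), 0 with DESeq2 and 1 with limma-voom, and neither of these tools called a member after adjustment. In the cortex it called 0 of 25 members and 0% of 14114 genes. Here 2 members had an unadjusted p under 0.05 with edgeR (5.48% of all genes), 2 with DESeq2 and 1 with limma-voom. After adjustment 0 were again called by DESeq2 (0.0148% of all genes) or limma-voom (0.00709%). The shares of all genes at an unadjusted p under 0.05 with these 2 tools are not given here, for either tissue. The members' median log2 fold change was 0.01 in the hippocampus and -0.14 in the cortex, against -0.0030 and 0.0050 over all genes tested. For every member the ranges of the 2 treatments overlapped in both tissues, and the share of all genes for which they did is not given here. A missed threshold does not show that levels were alike.

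The hippocampal members with the smallest p were Gabra3, Glra2, Gabra2, Iqsec3 and Gabra5, each with an adjusted p of 0.999998 in edgeR. Gabra3 and Gabra5, whose libraries are given above, were at -0.43 ± 0.26 and 0.18 ± 0.15 (log2 fold change ± SE). Glra2, the α2 subunit of glycine receptors, had 3.32, 0.967, 1.60, 0.812 and 2.15 CPM with YB-1 and 3.25, 2.95, 2.75, 1.46 and 2.86 CPM with HSP70, a change of -0.55 ± 0.41. Gabra2, the α2 subunit of GABA-A receptors, had 62.6, 26.0, 45.6, 77.3 and 49.3 CPM with YB-1 and 70.3, 41.0, 32.3, 25.3 and 15.03 CPM with HSP70, a change of 0.50 ± 0.38. For Iqsec3 the values were 219, 276, 283, 199 and 260.2 CPM with YB-1 and 192, 224, 250.3, 180.0 and 251 CPM with HSP70, a change of 0.18 ± 0.14. Replicate 1 of the HSP70 group stood above 4 of the 5 YB-1 libraries for Gabra2. Leaving out 1 library at a time, the change ran from -0.70 to -0.25 for Gabra3, -0.91 to -0.38 for Glra2, 0.30 to 0.87 for Gabra2, 0.11 to 0.24 for Iqsec3 and 0.10 to 0.30 for Gabra5. Slc12a5 was at 0.06 ± 0.11 and Slc12a2 at 0.01 ± 0.21, the sign of which depended on the processing.

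In the cortex the smallest p belonged to Glra3, Gabra4, Gabrg1, Iqsec3 and Glra2, each with an adjusted p of 0.86 in edgeR. Gabra4, the α4 subunit, had 25.4, 16.4, 22.3, 13.0 and 24.7 CPM with YB-1 and 39.4, 25.8, 28.5, 24.6 and 21.8 CPM with HSP70, and its log2 fold change was -0.45 ± 0.20 (unadjusted p = 0.038). Glra3, the α3 subunit of glycine receptors, had 0.804, 1.22, 0.606, 0.367 and 1.98 CPM with YB-1 and 4.57, 1.99, 1.87, 0.912 and 2.32 CPM with HSP70, a change of -1.19 ± 0.47 (unadjusted p = 0.023). In both genes replicate 1 was the highest of the HSP70 libraries and the treatments overlapped.

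Gabrg1, the γ1 subunit, had 2.95, 1.76, 3.43, 3.30 and 3.96 CPM with YB-1 and 5.89, 3.31, 4.35, 5.40 and 3.92 CPM with HSP70, a log2 fold change of -0.57 ± 0.27. Iqsec3 had 227, 259, 244, 299.9 and 211 CPM with YB-1 and 162, 178, 149.8, 243 and 263 CPM with HSP70, a change of 0.32 ± 0.17. Glra2 had 1.34, 0.949, 2.42, 0.367 and 2.08 CPM with YB-1 and 4.44, 2.07, 1.94, 1.52 and 2.83 CPM with HSP70, a change of -0.79 ± 0.42. None of these separated the treatments. Leaving out 1 library at a time, the change ran from -1.61 to -0.79 for Glra3, -0.55 to -0.30 for Gabra4, -0.68 to -0.43 for Gabrg1, 0.23 to 0.43 for Iqsec3, -1.04 to -0.49 for Glra2 and -0.53 to -0.18 for Slc12a2. Slc12a5 was at 0.05 ± 0.14, with a sign that depended on the processing, and Slc12a2 at -0.38 ± 0.25. After each cortical library was thinned to the smallest total, 0 members passed, and Glra3, Gabra4 and Slc12a2 stood at -1.36, -0.41 and -0.46. Interneuron markers had negative log2 fold changes in 16 of 16 cases in the cortex (10 of 25 members and 50.9% of all genes had positive ones). Of these markers 0 passed the threshold in edgeR and 4 had an unadjusted p under 0.05, as had 5.48% of all genes. Their summed levels were 1165 to 1787 CPM with YB-1 and 1449 to 1919 CPM with HSP70. The part of interneuron markers in the members' values was not tested.

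**Figure D4:**
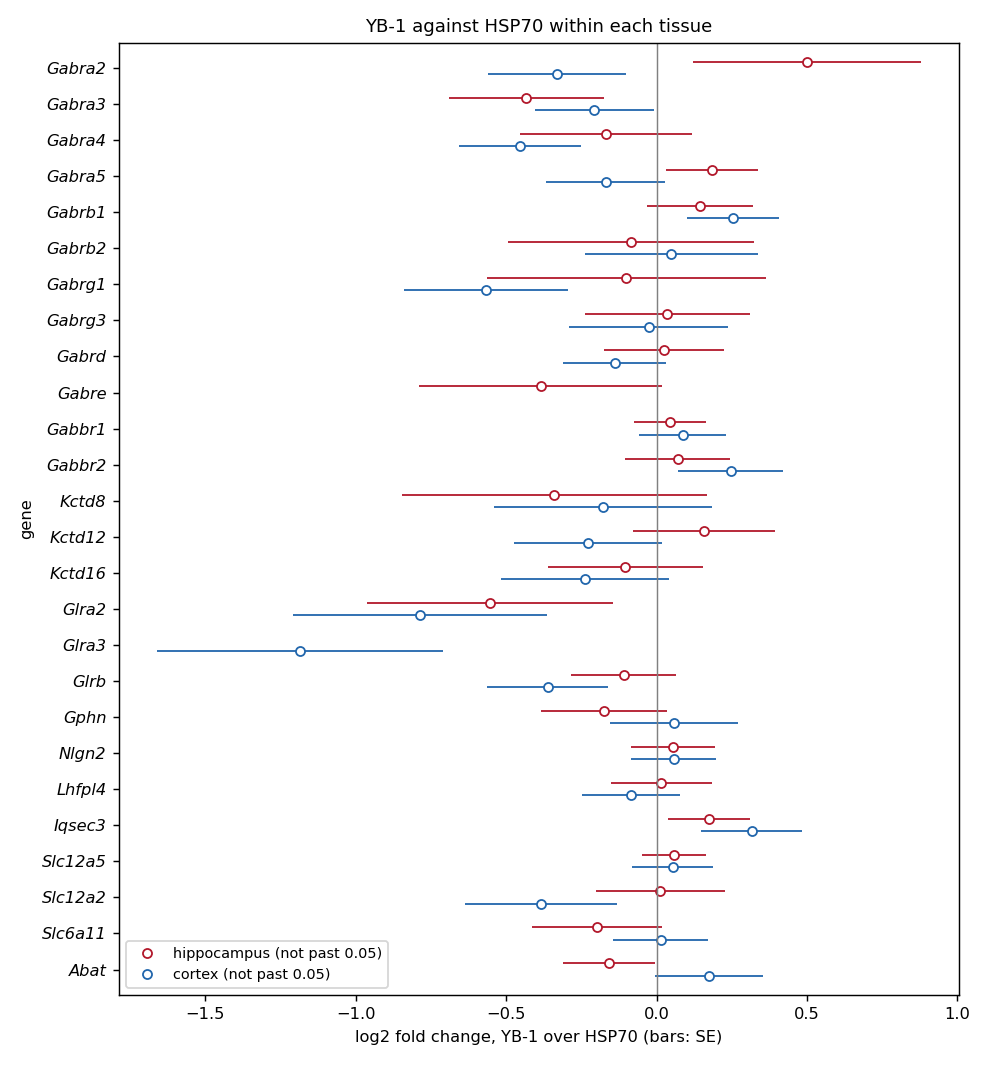
Log2 fold change of the members tested, YB-1 over HSP70 (horizontal axis; 0 means equal levels), in hippocampus and cortex, with bars of 1 SE. No member passed an adjusted p of 0.05; values run from -0.55 (Glra2) to 0.50 (Gabra2) in hippocampus and from -1.19 (Glra3) to 0.32 (Iqsec3) in cortex.

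Whether the difference between treatments itself differed by tissue was tested as the interaction, which called 0 of 26 members and 0% of all genes in edgeR. At an unadjusted p under 0.05 there were 0 members and 1.55% of genes with edgeR, 0 members with DESeq2 and 0 with limma-voom, which also called 0 members after adjustment. The unadjusted shares of all genes with DESeq2 and limma-voom are not given here either. The largest value was that of Gabra2, at 0.83 ± 0.48 on the log2 scale.

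Further genes were read from 3 lists drawn up around inhibitory transmission, beside which 8.55% of all genes were higher and 7.32% lower in hippocampus. Of 8 genes of GABA synthesis and transport 0 passed between the tissues, with 1 at an unadjusted p under 0.05. The share of all genes at that unadjusted p between tissues is not given here. Among the 8 were Aldh5a1, which breaks down the product of GABA transaminase, at 0.32 ± 0.11 (adjusted p = 0.053 in edgeR), the amino acid transporter gene Slc38a1 at 0.26 ± 0.12 and Glul, glutamine synthetase, at -0.12 ± 0.08. Of 16 genes of the inhibitory postsynapse and receptor trafficking 4 were lower in hippocampus and 0 higher, among them Nrxn3 (-0.52 ± 0.10) and Nrxn2 (-0.36 ± 0.09), whose products bind neuroligins from the presynaptic side, and Prickle1 (-0.35 ± 0.10). Of 8 genes listed as GABA-B effectors 2 were lower and 0 higher, Kctd1 at -0.95 ± 0.09 and the potassium channel gene Kcnj9 at -0.88 ± 0.11. Kctd17 was at -0.32 ± 0.12 and did not pass. Whether the products of Kctd1 and Kctd17 act with GABA-B receptors was not tested, so their values are not read as GABA-B signalling. Interneuron markers were lower in 6 of 16 cases and higher in 1, with Lamp5 at -2.22 ± 0.12, Calb2 at 2.26 ± 0.14 and Npy at -1.60 ± 0.17. The cortical list of upper layers also holds Lamp5, and that of the thalamus Calb2.

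Between the treatments 0 genes of these lists passed in either tissue in edgeR. At an unadjusted p under 0.05 there was 1 gene of synthesis and transport in each tissue, and in the cortex also 2 genes of the postsynapse list and 1 of the GABA-B list. Over all genes this held for 2.4% in the hippocampus and 5.48% in the cortex. In the hippocampus the smallest p of the synthesis and transport list belonged to the GABA transporter gene Slc6a13 (-0.56 ± 0.20), which is also in the list of meningeal markers, the GABA-synthesising enzyme gene Gad1 (-0.30 ± 0.17) and the vesicular transporter gene Slc32a1 (-0.19 ± 0.13). In the cortex Gad1 was at -0.51 ± 0.18 and Slc32a1 at -0.28 ± 0.15, and 8 of 8 genes had negative values, as had 7 of 8 in the hippocampus (50.9% of all genes in the cortex and 49.3% in the hippocampus had positive ones). In the postsynapse list the cortical value of Gabarapl2, which helps carry receptors to the membrane, was -0.48 ± 0.15 and that of Shisa7, an auxiliary GABA-A receptor protein, 0.37 ± 0.15 (adjusted p = 0.86 for both in edgeR). In the hippocampus the smallest p of that list belonged to Insyn1 (-0.13 ± 0.12) and Shisa7 (0.16 ± 0.16). Of the GABA-B list, Kcnj9 was at -0.26 ± 0.15, the G-protein gene Gnai1 at -0.15 ± 0.16 and the potassium channel gene Kcnj3 at 0.20 ± 0.24 in the hippocampus. In the cortex another G-protein gene, Gnai2, was at 0.29 ± 0.14, Kcnj9 at -0.29 ± 0.16 and Gnai1 at -0.29 ± 0.18.

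Libraries of 1 group also differed among themselves, and in the cortex many members moved with the share of ribosomal protein transcripts. The 80 cytosolic ribosomal protein genes summed to 20137 to 39520 CPM in hippocampus with YB-1 and 19733 to 39288 with HSP70, and to 21670 to 32268 and 19874 to 30783 CPM in cortex. Deviations of a member from its group mean were set against those of this sum over the 10 libraries of a tissue (Pearson's r, permutation p from 100000 resamples, adjusted over 14616 genes). In the cortex 20 of 26 members had a negative r, with a median of -0.61 against -0.093 over all genes, and 11 passed (21% of all genes). In the hippocampus 21 of 26 were negative, with a median of -0.55 against -0.11. There 3 passed, a smaller share than over all genes (19.3%). This relation was examined after the data had been seen. The ribosomal sum also went along with the Bc1 share. In each hippocampal group the largest sum was that of the library over 20% Bc1. In cortex with YB-1, replicates 2 and 4 had the largest sums and 14.25% and 15.5% Bc1, and replicate 3 the smallest and 4.74%. In cortex with HSP70, replicate 1 was lowest in both, but replicate 2, with the most Bc1 (17.9%), did not have the largest sum. The part of such library traits in the relation was not tested.

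Gphn in the cortex had r = -0.97 (permutation p = 2e-05, adjusted p = 0.0055) and rho = -0.95 (permutation p = 0.00020). Without the 2 libraries farthest from the median its r was -0.92. Gabrd in the cortex went the other way, with r = 0.95 (permutation p = 6e-05, adjusted p = 0.0067), rho = 0.93 (permutation p = 0.00031) and 0.90 without the 2 farthest libraries. Besides Gabrd, only Kctd16 had a positive r that passed in the cortex (0.87, permutation p = 0.0016, rho = 0.84, permutation p = 0.0039, and 0.66 without the 2 farthest). In the hippocampus Gabbr2 had r = -0.88 (permutation p = 0.00050, adjusted p = 0.0095), rho = -0.85 (permutation p = 0.0029) and -0.84 without the 2 farthest. Of the chloride cotransporters in the cortex, Slc12a2 had r = -0.88 (permutation, adjusted p = 0.018) and -0.72 without the 2 farthest. Slc12a5 had r = 0.55 there (permutation, adjusted p = 0.20) and 0.83 without the 2 farthest. In the hippocampus neither passed (r = -0.61 and -0.13). The part of the ribosomal level in their ratio was not tested. With the ribosomal level as a covariate, the tests between treatments still called 0 members, and those between tissues called 8 with YB-1 (9.84% of all genes), 8 with HSP70 (13.5%) and 11 over both (21.6%).

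**Figure D5:**
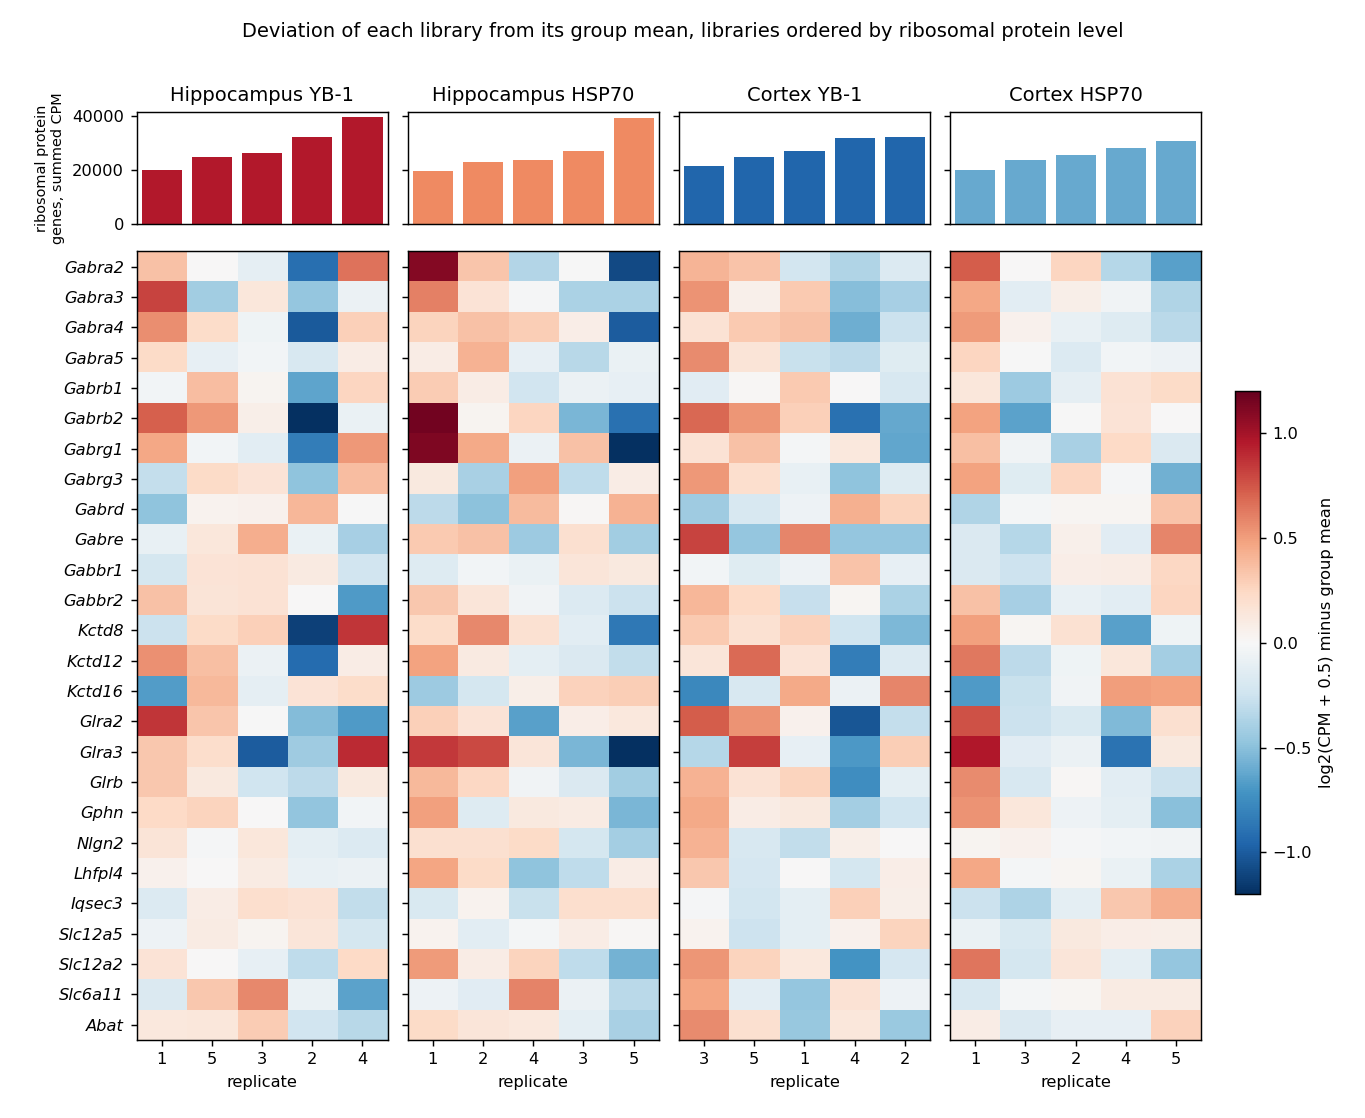
Deviation of each library from its group mean for the 26 members (colour, log2(CPM + 0.5); red above, blue below the mean), with libraries of each group ordered by the summed CPM of ribosomal protein genes (bars above, axis from 0). In the cortex Gphn is red at low and blue at high ribosomal level (r = -0.97) and Gabrd the reverse (r = 0.95).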

How the data were processed

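Reads per gene had been counted by the authors: the deposited values are whole-number counts of 55487 gene entries in each of 20 libraries. Trimmomatic, STAR and featureCounts with the GRCm39 build are named in the submitters' processing notes. For the tools, no version is given in the sources used here, nor is the strand option of the counting or the gene annotation. The library kit was directional, per the labels' protocols. The 12 summary entries were left out of totals (no-feature reads were 2.45% to 4.58% of a library, ambiguous reads 4.12% to 4.58%).

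Symbols and exon lengths came from GENCODE M21, which is on the earlier assembly GRCm38, and 55141 of 55487 IDs (99.4%, with 99.98% of reads) had one. Groups were taken from the labels. Counts were filtered with filterByExpr, scaled by TMM and tested with edgeR 4.0.16's quasi-likelihood test in R 4.3.3, with p adjusted by Benjamini-Hochberg over all genes tested. The treatments were compared in 1 fit for each tissue, and the tissues and the interaction in 1 fit of all 20 libraries. DESeq2 1.42.0, limma 3.58.1 (voom with quality weights), other scalings, no filter, thinning to equal depth (seed 20), the replicate number as a block and leaving out each library were alternatives. The ribosomal covariate and the fit without both libraries over 20% Bc1 were added after seeing the data. The count test was also run on simulated data, and the outcome is not reported here. Those counts were drawn independently for each library, without the relation between same-numbered libraries given below. No library pair of a group looked like a duplicate (smallest chi-square per degree of freedom 10.1).

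The members and lists were chosen with earlier results of these data known. All 27 members are reported. Values per library are given for members past an adjusted p of 0.05 between tissues with an absolute log2 fold change of at least 1, for the 5 smallest p of each treatment comparison and for Slc12a5 and Slc12a2. Of the related lists, the 3 smallest p in a comparison are named, except for some genes that are not reported here, and Prickle1 and Ntsr2 were named after their values were seen. Same-numbered hippocampal and cortical libraries correlated in their deviations in 10 of 10 pairs (r = 0.18 to 0.66 over 14616 genes), so the numbers were taken to pair the tissues. In 2 of the 10, a library with another number correlated better. Between same-numbered libraries of the 2 treatments in a tissue, r ran from -0.30 to 0.53. The 0.53 was that of hippocampal replicates 1, with the lowest summed ribosomal protein CPM of their groups (20137 with YB-1, 19733 with HSP70). Whether that level adds to the correlations between tissues was not tested.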

Additional observations from a re-analysis of the deposited data

Results flagged for a closer look

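In 5 of 104 sets of 5 libraries (a member in a group), 1 library lay far from the others by Dixon's criterion, and chance alone marks about 1 in 20 sets. Gabra4 was at 10.7 CPM in hippocampal HSP70 replicate 5, against 23.1 to 28.0 CPM in the others of the group, and that library is one of those over 20% Bc1. Hippocampal HSP70 replicate 4 was low for Glra2, at 1.46 CPM against 2.75 to 3.25 CPM, and high for Slc6a11, at 239 CPM against 126 to 152 CPM. Gabbr1 was at 1329.9 CPM in cortical YB-1 replicate 4, against 945 to 1026 CPM. Glrb was at 118 CPM in cortical HSP70 replicate 1, against 66.2 to 80.0 CPM. Without that library the log2 fold change of Glrb between tissues was -0.34 and no longer passed (adjusted p = 0.085 in edgeR).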

How the results depend on the processing

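Between the treatments, and for the interaction, 0 members passed under each alternative run. Between the tissues over both treatments 8 to 11 members passed. The share of all genes called ran from 7.68% (no filter) to 21.6% (ribosomal covariate), runs that left out 1 library aside. With HSP70 alone the count of 4 (8.61% of all genes) became 7 with DESeq2 (10.1%), 7 with limma-voom (11.7%), 8 with the replicate block (12.2%) and 8 with the ribosomal covariate (13.5%). With upper-quartile scaling it was 5 (8.57%). With YB-1 alone the count of 4 (6.51%) became 8 with the ribosomal covariate (9.84%) and 5 with the replicate block (8.37%). That count was 5 with DESeq2 (7.09%) and 6 with limma-voom (8.05%). It fell to 3 with no filter (2.89%) and to 3 without both libraries over 20% Bc1 (6.71%). Leaving out 1 library gave 3 to 6 members with HSP70, 3 to 4 with YB-1, 8 to 10 over both, and 0 in the other comparisons. The shares of all genes called in those runs are not given here. The cause of these shifts was not tested.

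Over both treatments, signs between tissues changed for 6 members, none of which had passed: Gabra2 (0.0019 with limma-voom, -0.247 to 0.048 leaving out 1 library), Lhfpl4 (-0.0030 thinned, -0.046 to 0.086), Gphn (-0.0021 thinned, -0.019 to 0.13), Abat (-0.014 to 0.11), Gabrg1 (-0.024 to 0.29) and Glra2 (-0.026 to 0.30). Between treatments signs were examined for 7 of 25 members in each tissue (the 5 smallest p, Slc12a5 and Slc12a2), and changed for Slc12a2 in hippocampus (-0.00050 with limma-voom, -0.17 without both libraries over 20% Bc1, -0.11 to 0.16 leaving out 1 library) and Slc12a5 in cortex (-0.0051 with limma-voom, -0.023 to 0.11). Leaving out 1 library, the log2 ratio of Slc12a5 to Slc12a2 was -0.13 to 0.15 between treatments in hippocampus, 0.25 to 0.59 in cortex, -0.72 to -0.39 between tissues with HSP70 and -1.12 to -0.78 with YB-1 (exact permutation, adjusted p = 0.032 to 0.16). With the replicate number as a block, an exact sign-flip permutation test of the 5 pairs gave p = 0.063 between tissues in each treatment, the smallest p it can give.

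Calls of Gabra3 with HSP70 and of Kctd12 with YB-1 ended with no filter on low counts (adjusted p = 0.059 and 0.066 in edgeR) and without both libraries over 20% Bc1 (0.091 and 0.051). The replicate block ended no member's call between tissues. Across treatments the numbers were not taken to pair libraries. With 5 to 19 reads of Gabre a hippocampal library and 0 to 8 a cortical one, its fold is loosely set.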

Other observations

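Deviations of the hippocampal and the cortical library with the same number were set against each other for each member (10 pairs, Pearson's r, permutation with 100000 resamples, adjusted over 14616 genes), after the data had been seen. The r was positive for 22 of 26 members, with a median of 0.28 against 0.24 over all genes. After adjustment 0 members passed (0.0753% of genes did), and 4 had an unadjusted p under 0.05. Gphn had r = 0.74 (permutation p = 0.014, adjusted p = 0.27), rho = 0.71 (permutation p = 0.027) and 0.43 without the 2 farthest pairs. Gabra3 had r = 0.69 (permutation p = 0.027, adjusted p = 0.34) and 0.86 without the 2 farthest pairs.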
